A study of Mus musculus with 6 samples.

Results

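The 9 genes described here were chosen by name as the mouse MHC class II genes and their transactivator, from the 26167 genes measured by RNA-seq in Hepa1-6 tumors. They are H2-Aa, H2-Ab1, and H2-Eb1, which encode chains of the classical class II molecules, H2-DMa and H2-DMb1, which encode the peptide-loading molecule DM, H2-Oa and H2-Ob, which encode its inhibitor DO, Cd74, which encodes the invariant chain, and Ciita. All 9 had enough reads to be among the 16513 genes tested.

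The tumors came from female C57BL/6J mice, bought at 6 to 8 weeks of age, into which Hepa1-6 cells, a mouse hepatoma line, were injected under the skin on day 0. The 3 treated tumors (numbered 2, 3, and 4) came from mice given sorafenib (Sora), an inhibitor of several kinases, ip at 10 mg/kg on day 9, day 11, day 13, and day 15. The 3 control tumors (numbered 1, 3, and 4) carry no treatment other than control in their labels, and a vehicle is not named for them. Each library is RNA from whole tumor tissue grown under the skin from 1 cell line, so it pools hepatoma cells with the cells of the host. A library of such tissue cannot tell fewer cells of a type from less RNA per cell. Depth was 31073830 to 36205814 counted reads. The hepatoma genes expected of the line were present, with Alb, which encodes albumin, at 1994 to 3510.5 CPM (reads of a gene scaled to a library of fixed size, TMM adjusted) and Afp, which encodes alpha-fetoprotein, at 655 to 1000.5 CPM. The counts of Sora tumor 4 were computed from its FPKM (reads scaled to gene length and library total), because the count table used here holds the other 5 tumors.

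Class II molecules present peptides from endosomes to CD4 T cells and are made mainly by dendritic cells, B cells, and activated macrophages. The alpha and beta chains pair in the endoplasmic reticulum, where the invariant chain occupies their groove and directs them to endosomes. There proteases cut the invariant chain down to a short peptide, DM exchanges that peptide for antigen, and DO restrains DM. Transcription of the whole set depends on CIITA, a coactivator that does not bind DNA itself but docks on RFX, CREB, and NF-Y proteins assembled over an X box and a Y box. Interferon gamma can induce Ciita in many cell types, including tumor cells. In C57BL/6 mice the gene for the partner of H2-Eb1, H2-Ea, is known to be inactive, and H2-Ea was not analysed here.

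The X and Y boxes can be read in some of the promoters, and they are printed here because CIITA acts on class II genes through this element. RefSeq promoters of GRCm38.p6, from 250 bases before to 50 bases after the gene start, were searched for GCAAC or GTAAC, the core of the X box, followed on the same strand after 20 to 40 bases by ATTGG, the Y box. Of the 9 genes, 6 matched a promoter entry, and 5 of those 6 held the pair on the strand of the gene. Among all 32851 promoters of that length, 0.664% held the pair on the gene strand and 1.44% on either strand. The 6th gene, H2-DMa, had a pair in neither of its 2 entries. H2-Ab1, Cd74, and Ciita were not matched. The 5 stretches lie upstream of the gene starts on chromosome 17. Each line runs 5′ to 3′ on the strand of the gene, and capitals mark the X box core and then the Y box.
H2-Aa, chr17:34287857-34287924, minus strand: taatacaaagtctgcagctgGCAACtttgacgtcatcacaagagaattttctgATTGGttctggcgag
H2-Eb1, chr17:34305756-34305822, plus strand: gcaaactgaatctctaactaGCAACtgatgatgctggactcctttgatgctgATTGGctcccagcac
H2-DMb1, chr17:34153077-34153144, plus strand: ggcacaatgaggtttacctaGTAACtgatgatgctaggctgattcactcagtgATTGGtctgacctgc
H2-Oa, chr17:34092283-34092350, plus strand: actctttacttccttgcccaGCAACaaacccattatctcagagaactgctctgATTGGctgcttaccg
H2-Ob, chr17:34238798-34238862, plus strand: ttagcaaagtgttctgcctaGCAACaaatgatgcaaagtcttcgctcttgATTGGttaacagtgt

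The spacing between the boxes was close to constant. It was 28 bases in H2-Aa, H2-DMb1, and H2-Oa, 27 bases in H2-Eb1, and 25 bases in H2-Ob. H2-DMb1 carried the GTAAC form and the other 4 genes the GCAAC form. The first base of the X box core lay 76 to 94 bases before the gene start in these 5 genes. Of 2 class II genes outside the set, the entry of H2-Eb2 held an X-Y pair on the gene strand, and that of H2-DMb2 held none. A Y box sequence on either strand was found in all 6 genes with an entry, but also in 37.4% of all promoters. The search includes its overlap with the X-Y pair. A GAS sequence (TTCNNNGAA, the same read on both strands), which STAT proteins can bind, was in none of the 6, in the entry of H2-DMb2, and in 8.30% of all promoters. An interferon response core (GAAANNGAA, either strand) was in none of the 6 and in 8.56% of all promoters. These are matches of letters in a short window, not measured binding.

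**Figure D1:**
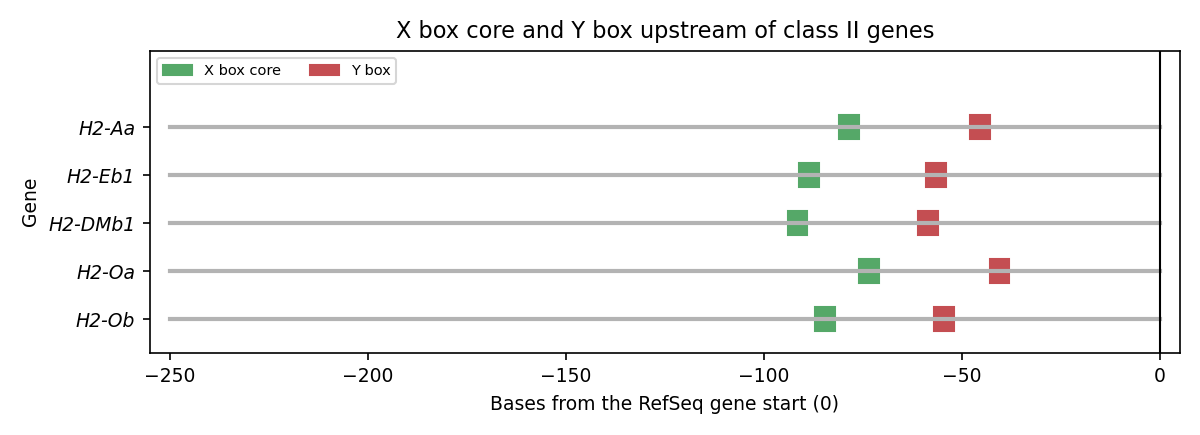
Position of the X box core (green) and the Y box (red) before the RefSeq gene start, in bases, for the 5 genes that hold the pair. The X box core starts 76 to 94 bases upstream in all 5.

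Per length, in FPKM, the genes spanned a wide range of levels. In every one of the 6 tumors the order was Cd74, H2-Aa, H2-Ab1, H2-Eb1, H2-DMb1, H2-DMa, Ciita, H2-Oa, and H2-Ob. Cd74 ranked between 25 and 54 of the 26167 genes, and the classical chains between 67 and 179. H2-DMb1 ranked between 601 and 980, Ciita between 5755 and 8313, and H2-Ob between 13858 and 15468. H2-Aa and H2-Ab1 did not differ beyond their spread over the Sora tumors, and neither did H2-Ab1 and H2-Eb1, although the order held within each tumor. The other neighbours did not overlap within a group. The 9 genes together took 0.461% to 0.555% of the reads of the control tumors and 0.352% to 0.473% of those of the Sora tumors. Cd74 and the 3 classical chains made up 93.8% to 94.2% of these reads in each tumor. The FPKM of H2-DMa rest on a gene length of 8325 bases, which is 4.15 times its longest coding transcript in GENCODE M21. With that transcript as the length, the mean level of H2-DMa in control tumors would be 50.6 in place of 12.2 FPKM.

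**Figure D2:**
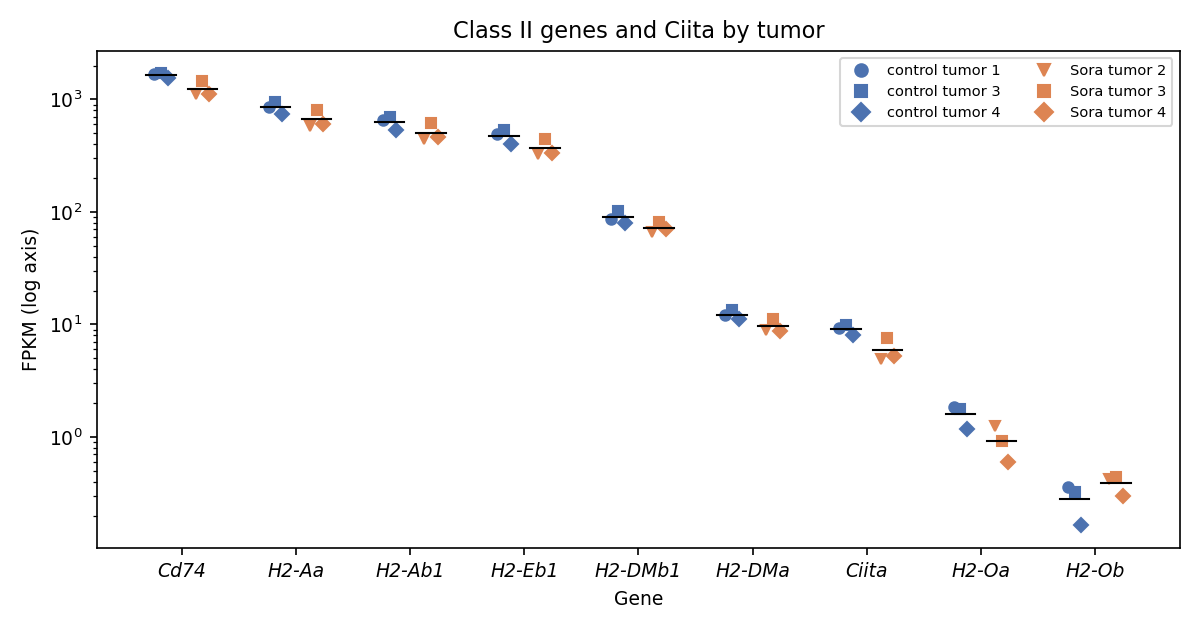
FPKM of each gene in each tumor on a log axis, with the 3 control tumors in blue, the 3 Sora tumors in orange, and the group mean as a line. The genes keep 1 order in all 6 tumors, from Cd74 (1113 to 1705 FPKM) to H2-Ob (0.164 to 0.437 FPKM).

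Of the 9 genes, 8 were lower in Sora tumors than in control tumors, and 1, Ciita, passed an adjusted p under 0.05. The median log2 fold change was -0.34, beside -0.000 for all genes tested. A log2 fold change under 0 was found for 50.1% of all genes tested, an adjusted p under 0.05 with a lower level for 1.34%, and one with a higher level for 1.94%. At an unadjusted p under 0.05, 8 of the 9 genes were lower, beside 8.69% of all genes. In 3 of the 9 genes (Cd74, H2-DMa, and Ciita) every Sora tumor was below every control tumor, beside 11.6% of all genes. The shares of all genes higher at an unadjusted p under 0.05, or with every Sora tumor above every control tumor, were not counted. Counts of higher genes by these measures therefore have no share beside them. The 9 genes vary together across tumors and are not independent of each other. Without Sora tumor 3, 5 of them passed the threshold (H2-Aa, H2-Eb1, H2-DMa, Cd74, and Ciita), and without any other tumor none did. Of all genes, 3.5% were called lower and 3.52% higher without Sora tumor 3, and 0.00613% lower without Sora tumor 4. DESeq2, used beside edgeR below, called 3.72% of all genes lower and 4% higher, and edgeR with no filter called 2.28% lower and 2.26% higher.

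Ciita, the coactivator itself (chr16:10480014-10531064), had 88.9, 99.3, and 78.0 CPM in control tumors 1, 3, and 4. It had 48.0, 73.3, and 52.9 CPM in Sora tumors 2, 3, and 4. All Sora tumors were below all control tumors, with Sora tumor 3 close to control tumor 4. The mean was 88.8 ± 10.6 CPM (SD, n = 3) in control tumors and 58.0 ± 13.4 CPM (SD, n = 3) in Sora tumors, so Ciita fell by 34.6%. The log2 fold change was -0.61 (SE 0.14), with an adjusted p of 0.0465 in edgeR. The call was lost without any 1 tumor other than Sora tumor 3. Leaving out control tumor 1, 3, or 4 gave edgeR adjusted p of 0.111, 0.118, and 0.0733, and leaving out Sora tumor 2 or 4 gave 0.151 and 0.211, while without Sora tumor 3 it was 0.00346. The log2 fold change stayed between -0.82 and -0.49 in those fits. The fit without Sora tumor 4 uses deposited counts only.

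The invariant chain gene, Cd74, on chromosome 18, had 2331, 2471, and 2175 CPM in control tumors 1, 3, and 4. It had 1564, 2050.1, and 1626 CPM in Sora tumors 2, 3, and 4. The groups did not overlap, and Sora tumor 3 again lay nearest to the control tumors. Its log2 fold change was -0.41 (SE 0.11), and its adjusted p of 0.0764 in edgeR missed the threshold. It passed without Sora tumor 3 (edgeR adjusted p = 0.0117).

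The classical chains shared a pattern in which the groups overlapped. H2-Aa, the alpha chain of I-A (chr17:34282744-34287823), had 935, 1098, and 839 CPM in control tumors 1, 3, and 4 and 655, 907, and 702 CPM in Sora tumors 2, 3, and 4. H2-Ab1, its beta chain (chr17:34263227-34269418), had 769, 857, and 633 CPM in the control tumors and 525, 721, and 567 CPM in the Sora tumors. H2-Eb1, the beta chain of I-E (chr17:34305867-34316674), had 806, 911, and 659 CPM and then 545, 736, and 572 CPM. In all 3 genes Sora tumor 3 was above control tumor 4, and Sora tumor 2 was the lowest. The log2 fold changes were -0.34 (SE 0.13), -0.32 (SE 0.13), and -0.36 (SE 0.14) for H2-Aa, H2-Ab1, and H2-Eb1. None passed the threshold, with edgeR adjusted p of 0.207, 0.254, and 0.199. Without Sora tumor 3, H2-Aa and H2-Eb1 passed it, with log2 fold changes of -0.50 and -0.51. Without control tumor 3 the log2 fold changes were smaller, at -0.23, -0.21, and -0.25 for H2-Aa, H2-Ab1, and H2-Eb1.

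The DM genes gave values of the same size. H2-DMa (chr17:34119693-34139101) had 98.3, 113, and 92.4 CPM in control tumors 1, 3, and 4 and 73.2, 92.1, and 75.1 CPM in Sora tumors 2, 3, and 4. H2-DMb1 (chr17:34153191-34160229) had 107, 134, and 102 CPM and then 84.1, 103, and 94.0 CPM. The groups of H2-DMa were apart only by the gap between Sora tumor 3 and control tumor 4, and those of H2-DMb1 overlapped. The log2 fold change was -0.34 (SE 0.11, edgeR adjusted p = 0.116) for H2-DMa and -0.29 (SE 0.11, edgeR adjusted p = 0.198) for H2-DMb1. Without control tumor 3 these were -0.25 for H2-DMa and -0.16 for H2-DMb1. H2-DMb1 has a close copy, H2-DMb2, and how reads that match both were counted is not given in the sources used here.

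The DO genes were the scarcest and the only pair whose log2 fold changes differed in sign. H2-Oa (chr17:34092379-34095234) had 71, 72, and 52 reads in control tumors 1, 3, and 4 and 48, 37, and 25 reads in Sora tumors 2, 3, and 4. H2-Ob (chr17:34238905-34245908) had 34, 33, and 18 reads and then 40, 44, and 31 reads. Both genes had groups that overlapped in CPM. The log2 fold change was -0.78 (SE 0.35, edgeR adjusted p = 0.284) for H2-Oa and 0.46 (SE 0.39, edgeR adjusted p = 0.607) for H2-Ob, so neither passed the adjusted threshold (unadjusted p of 0.0479 and 0.261 in edgeR). Without control tumor 4 the log2 fold change was 0.18 for H2-Ob and -0.97 for H2-Oa. As a share of the reads of both genes, H2-Oa held 67.6% (57.8% to 76.4%), 68.6% (58.8% to 77.3%), and 74.3% (62.4% to 84.0%) in the control tumors. In the Sora tumors it held 54.5% (43.6% to 65.2%), 45.7% (34.6% to 57.1%), and 44.6% (31.3% to 58.5%). The intervals are exact 95% binomial intervals, which cover counting error only. The share was lower in each Sora tumor than in each control tumor, while the interval of Sora tumor 2 overlapped those of all 3 control tumors and that of Sora tumor 4 overlapped that of control tumor 1.

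**Figure D3:**
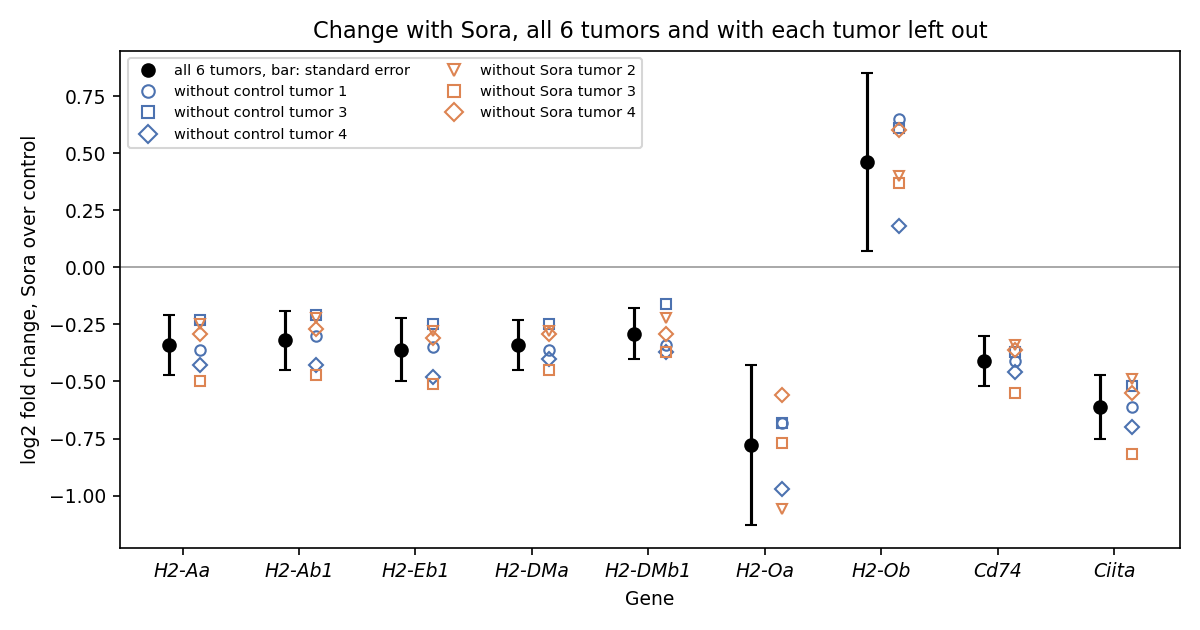
Log2 fold change of each gene, Sora over control, in the edgeR fit of all 6 tumors (black, bar: standard error) and in the fits that leave out 1 tumor each (open symbols). The 8 genes other than H2-Ob lie below 0 in each fit, and the values without Sora tumor 3 are the lowest for the classical chains, H2-DMa, Cd74, and Ciita.

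Ratios of FPKM within a tumor do not depend on the scaling between libraries, and 6 were compared. Each was tested by an exact two-sided permutation test, whose smallest possible p with 3 tumors against 3 is 0.1, so none could pass 0.05. H2-Oa exceeded H2-Ob by a factor of 5.18, 5.41, and 7.17 in the control tumors (1, 3, and 4). The factor was 2.98, 2.09, and 2.0 in Sora tumors 2, 3, and 4. On the log2 scale the means were 2.55 ± 0.25 (SD, n = 3) and 1.21 ± 0.32 (SD, n = 3), a difference of -1.34 (exact permutation p = 0.1, adjusted over the 6 ratios 0.2). The ratio of Ciita to H2-Ab1 did not overlap between the groups either. Its log2 values were -6.15, -6.14, and -6.05 with no Sora against -6.49, -6.33, and -6.46 with Sora, a difference of -0.31 (exact permutation p = 0.1, adjusted 0.2). The ratio of H2-Eb1 to H2-Ab1 differed by -0.04 with no overlap (exact permutation p = 0.1, adjusted 0.2). The other ratios overlapped. The differences were -0.03 for H2-Aa to H2-Ab1, -0.05 for H2-DMa to H2-DMb1, and -0.10 for Cd74 to H2-Ab1, with exact permutation p of 0.5, 0.5, and 0.2.

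**Figure D4:**
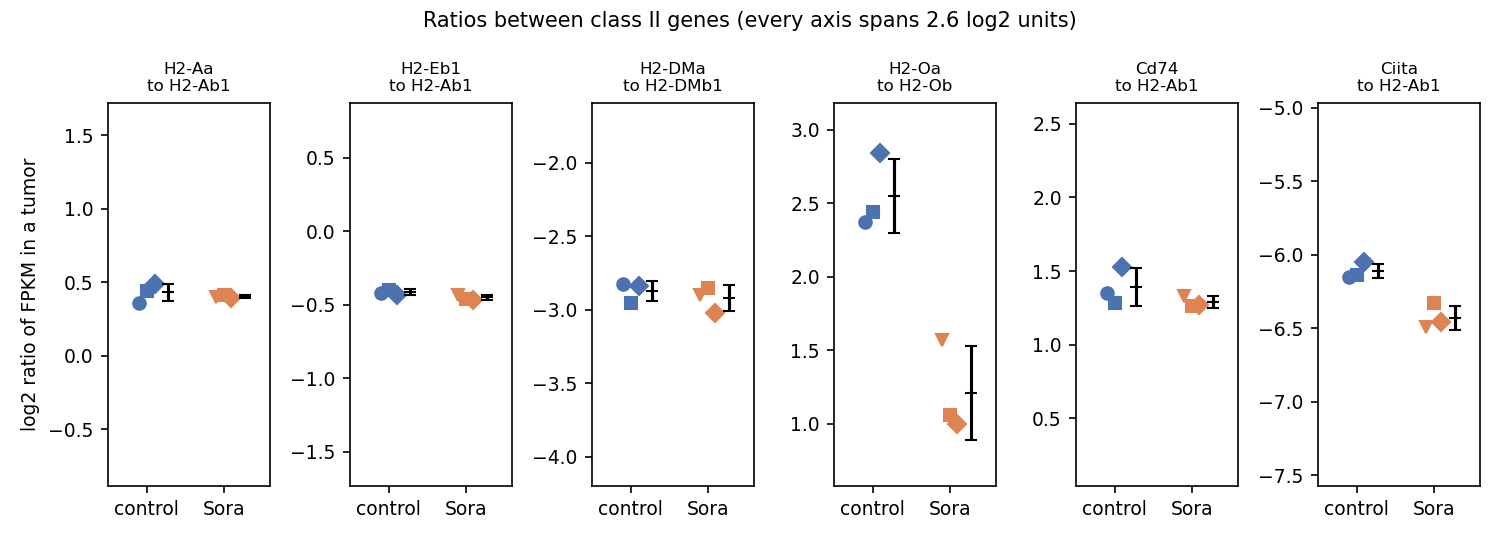
Log2 ratio of FPKM between genes within each tumor, by group, with the mean and SD of the 3 tumors beside the points. Every axis has the same length in log2 units. The ratio of H2-Oa to H2-Ob spans 2.37 to 2.84 in control tumors and 1.0 to 1.57 in Sora tumors, and the ratios among H2-Aa, H2-Ab1, and H2-Eb1 hardly differ between tumors.

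The genes largely ranked the tumors alike. H2-Aa, H2-Ab1, H2-Eb1, and H2-DMb1 put them in the order control 3, control 1, Sora 3, control 4, Sora 4, and Sora 2. H2-DMa, Cd74, and Ciita had the same order except that control tumor 4 stood before Sora tumor 3. H2-Oa and H2-Ob each had another order. The genes most like the classical chains were sought among 11446 genes with a mean of at least 5 CPM. Likeness was the root mean square difference, over the 6 tumors, between log2(CPM + 1) centred on its mean and the mean of the same profile for H2-Aa, H2-Ab1, and H2-Eb1. The 5 closest genes outside the set were Gm53989 (0.032), C1qb (0.042), Cd84 (0.051), Slc46a3 (0.060), and C1qc (0.061). C1qb and C1qc encode chains of complement C1q, which macrophages make, and Cd84 encodes a receptor of the SLAM family found on leukocytes. By the same measure H2-DMa was at 0.061, Cd74 at 0.084, H2-DMb1 at 0.091, Ciita at 0.149, H2-Oa at 0.243, and H2-Ob at 0.327. These values describe 6 tumors that differ in treatment.

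**Figure D5:**
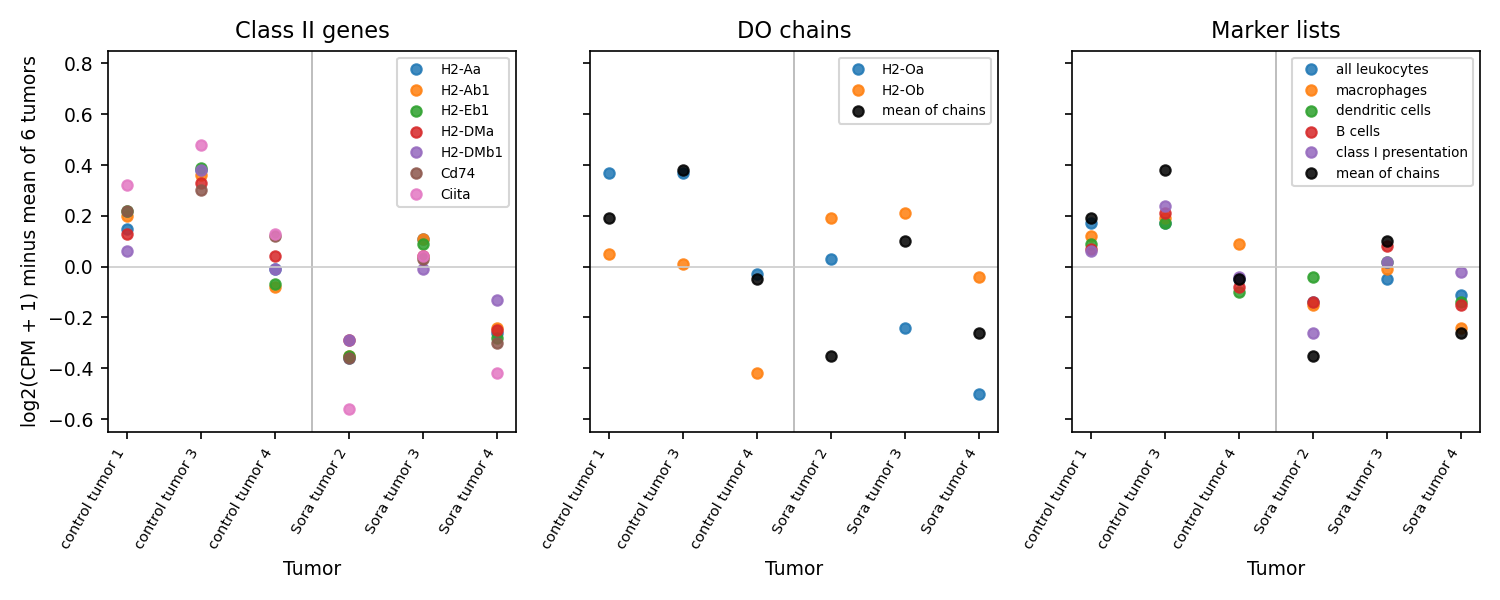
Log2(CPM + 1) minus its mean over the 6 tumors for 7 of the 9 genes (left), for the DO genes (middle), and for the mean of each of 5 gene lists (right), with the mean of the 3 classical chains in black. Control tumor 3 is the highest and Sora tumor 2 the lowest for the classical chains, and the 5 lists plotted span less than the chains do (2 lists that are not plotted span more, monocytes from 0.63 to -0.39 and other class II genes from 0.28 to -0.58).

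Markers of the cells that carry class II molecules were compared as well, and their part in the class II values was not tested. All 10 macrophage markers were lower, with a median log2 fold change of -0.28. In edgeR 1 of them passed the test, in edgeR without Sora tumor 3 it was 3, and in DESeq2 it was 5. Their summed level was 1823 to 2173 CPM in control tumors and 1519 to 1781 CPM in Sora tumors. Mertk, a receptor for the uptake of dying cells, fell (log2 fold change -0.45, SE 0.09, edgeR adjusted p = 0.0310), and this call was lost without any 1 tumor other than Sora tumor 3 (edgeR adjusted p of 0.0664 to 0.156). C1qb and C1qa, the most abundant of the list, had log2 fold changes of -0.34 and -0.32 and did not pass the test. Of 10 dendritic cell markers, 7 were lower and 3 higher, with a median of -0.12. None passed in the edgeR fit given here, 2 passed in DESeq2 and in edgeR with no filter, and 3 were lower and 1 higher at an unadjusted p under 0.05. Their summed level was 262 to 328 CPM in control tumors and 220.3 to 248 CPM in Sora tumors, most of it from Itgax (CD11c), which macrophages also express (log2 fold change -0.34, edgeR adjusted p = 0.0909). Zbtb46, a factor of dendritic cells, was at 13 to 13.6 CPM in control tumors and 13.4 to 15 CPM in Sora tumors. Of the 10 dendritic cell markers, 3 had every Sora tumor below every control tumor, beside 11.6% of all genes, and 0 had every Sora tumor above.

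Levels of B cell markers differed widely. Ms4a1 and Cd79a were under 1 CPM in every tumor. Of the 8 markers of the B cell list 7 could be tested, 6 were lower and 1 higher, with a median of -0.18. None passed in edgeR or DESeq2, and 1 was lower at an unadjusted p under 0.05. Their summed level was 33.7 to 38.3 CPM in control tumors and 27.8 to 30.3 CPM in Sora tumors, mostly from Pax5 and Cd22. The 5 genes of most leukocytes were all lower with a median of -0.23. None passed in the edgeR fit given here, 2 passed in DESeq2 and in edgeR with no filter, 1 passed in edgeR without Sora tumor 3, and 3 were at an unadjusted p under 0.05. The most abundant of them were Laptm5 (-0.28, edgeR adjusted p = 0.0640) and Itgb2 (-0.23, edgeR adjusted p = 0.264). The 4 monocyte markers were all lower with a median of -0.49. None passed in the edgeR fit given here, 2 passed in DESeq2, in edgeR with no filter, and in edgeR without Sora tumor 3, and 2 were at an unadjusted p under 0.05. Plac8 and Ccr2, the most abundant of them, had log2 fold changes of -0.15 and -0.47. No gene of any marker list was at 0 in a tumor. Of 6 genes of hepatoma cells, Alb fell (-0.55, edgeR adjusted p = 0.0410), and Hnf4a (0.80, edgeR adjusted p = 0.0130) and Apoa1 (1.03, edgeR adjusted p = 0.0470) rose. The median of this list was 0.13, with 3 lower and 3 higher. Each of these calls was lost without Sora tumor 4 (edgeR adjusted p of 0.175, 0.0816, and 0.152) and without control tumor 4 (0.125, 0.0510, and 0.114). In DESeq2 Apoa1 did not pass (adjusted p = 0.0627). The calls of Alb and Apoa1 were also lost in edgeR without control tumor 3 (0.0935 and 0.112) and without Sora tumor 2 (0.181 and 0.101), and that of Apoa1 without control tumor 1 (0.127).

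The classical chains and Cd74 were also set against these markers within each tumor. The mean log2(CPM + 1) of these 4 genes exceeded that of the macrophage list by 3.04, 3.14, and 2.86 in control tumors 1, 3, and 4 and by 2.76, 3.06, and 2.94 in Sora tumors 2, 3, and 4. The groups overlapped and their means differed by -0.09. Against the leukocyte list the difference was -0.16, with overlap. Against the dendritic cell list it was -0.25 and against the B cell list -0.22, and in both every Sora tumor was below every control tumor. Against the hepatoma list it was -0.58, with overlap, and against the monocyte list 0.03, with overlap.

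Of the 6 genes of endosomal processing, 5 were lower and 1 higher, and the 2 that passed the test moved in opposite directions. Ifi30, which encodes the thiol reductase GILT that unfolds antigen in endosomes, had 210.1, 223, and 184 CPM in control tumors 1, 3, and 4 and 129.8, 157, and 138 CPM in Sora tumors 2, 3, and 4. It fell with a log2 fold change of -0.54 (SE 0.10, edgeR adjusted p = 0.0188). Ctsl, which encodes cathepsin L, had 609, 690.3, and 626 CPM in the control tumors and 936, 786, and 1057 CPM in the Sora tumors. It rose with a log2 fold change of 0.53 (SE 0.11, edgeR adjusted p = 0.0300). Cathepsin L cuts the invariant chain in thymic epithelium, while cathepsin S, encoded by Ctss, does so in most antigen-presenting cells. Ctss was at 794 to 1169 CPM in control tumors and 605 to 785 CPM in Sora tumors, without overlap, and did not pass the test (log2 fold change -0.47, SE 0.14, edgeR adjusted p = 0.0978). Ctsb and Ctsd, the most abundant of the list, had log2 fold changes of -0.27 and -0.13, and neither passed. The median of the list was -0.24, and in DESeq2 4 of the 6 passed an adjusted p under 0.05, 3 with a lower and 1 with a higher level. The call of Ifi30 was lost without control tumor 1, Sora tumor 2, or Sora tumor 4 (edgeR adjusted p of 0.0542, 0.0750, and 0.109). The call of Ctsl was lost without control tumor 1, control tumor 4, Sora tumor 2, or Sora tumor 4 (edgeR adjusted p of 0.0991, 0.0970, 0.101, and 0.131).

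All 3 genes that set how long class II molecules stay at the surface were lower, with a median of -0.40. Cd83, whose product protects class II molecules from ubiquitination, had 31.9, 30.7, and 30.2 CPM in control tumors 1, 3, and 4 and 23.4, 24.5, and 20.4 CPM in Sora tumors 2, 3, and 4. It fell with a log2 fold change of -0.44 (SE 0.09, edgeR adjusted p = 0.0307), a call that was lost without any 1 tumor other than Sora tumor 3 (edgeR adjusted p of 0.0690 to 0.139). Marchf1, the ubiquitin ligase that CD83 opposes, narrowly missed the threshold (log2 fold change -0.40, SE 0.10, edgeR adjusted p = 0.0526). In DESeq2, in edgeR with no filter, and in edgeR without Sora tumor 3, Marchf1 passed beside Cd83. Marchf8, a related ligase, was at -0.12. The groups of all 3 genes did not overlap.

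None of the 7 genes for the RFX, NF-Y, and CREB1 proteins, which CIITA docks on, passed in edgeR or DESeq2 or was at an unadjusted p under 0.05. Of these, 5 were lower and 2 higher, with a median of -0.09, and the most abundant, Creb1 and Nfya, were at -0.09 and -0.03. Rfx5, a DNA-binding subunit of RFX, was at -0.19 (SE 0.11, edgeR adjusted p = 0.403). Of 14 regulators upstream of Ciita, 11 were lower and 3 higher, with a median of -0.16. None passed in the edgeR fit given here, and 4 were lower and 2 higher at an unadjusted p under 0.05. In 6 of the 14 every Sora tumor was below every control tumor, beside 11.6% of all genes, and in 1 every Sora tumor was above. Jak2, a kinase of the interferon gamma receptor, was higher in each Sora tumor than in each control tumor (log2 fold change 0.29, SE 0.07, edgeR adjusted p = 0.0556). It passed the threshold in DESeq2, in edgeR without Sora tumor 3, and in edgeR with no filter, a filter at a mean of 50 counts, total count scaling, or upper quartile scaling. Ifng itself was at 6.91 to 7.37 CPM in control tumors and at 4.86 to 8.67 CPM in Sora tumors, with overlap.

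The 2 class II genes outside the set were both lower, with a median of -0.39, and did not pass the test. H2-DMb2 had 18.8, 17.8, and 17.7 CPM in control tumors and 10.5, 18.2, and 14.2 CPM in Sora tumors (log2 fold change -0.34, SE 0.17, edgeR adjusted p = 0.333). H2-Eb2 had 2.40, 2.82, and 1.92 CPM and then 0.959, 2.86, and 1.42 CPM (log2 fold change -0.44, SE 0.38, edgeR adjusted p = 0.621). No class II gene outside the set was at an unadjusted p under 0.05 or passed in DESeq2, and H2-DMb2 passed in edgeR without Sora tumor 3. Of the T cell receptors for class II molecules, Cd4 had 24.1, 16.9, and 29.8 CPM in control tumors and 14.8, 14.8, and 18.8 CPM in Sora tumors (log2 fold change -0.55, SE 0.18, edgeR adjusted p = 0.136). Lag3 (median of the pair -0.38) was at -0.21 (SE 0.11, edgeR adjusted p = 0.351), and the groups of both genes overlapped. Neither passed in the edgeR fit given here, and Cd4, the 1 of them at an unadjusted p under 0.05, passed in DESeq2, in edgeR with no filter, and in edgeR without control tumor 3.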

How the data were processed

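Whole Hepa1-6 tumors, 3 control and 3 Sora-treated, were measured by RNA-seq with 1 library each, grouped by the treatment in the labels. The authors deposited counts (reads per gene, not normalized) and FPKM (counts divided by gene length and library total) for 26167 genes. The paper's methods name GRCm38, Bowtie2, and FPKM by expectation maximization, and the submitters' processing notes list GRCm39, fastp, HISAT2, HTSeq, R 3.2.0, and DESeq2. Which of these made the tables, the annotation, and the use of strand are not given in the sources used here. Coordinates and promoters are those of RefSeq GRCm38.p6, matched by symbol, and GENCODE M21 gave transcript lengths.

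The count table used here holds 5 tumors. Those of Sora tumor 4 were worked back from FPKM, with the 1 length per gene that the other tumors imply. Treated as unknown, each of the 5 other tumors came back exactly. In Sora tumor 4, 20951 genes were recovered, and 342 genes without a known length were left at 0. Total counts of 31073830 to 36205814 give a gene at 1 CPM over 30 reads, and counting error limits H2-Oa and H2-Ob. No label or text names separate batches. Each tumor has its own label, and whether each came from its own mouse is not stated there. The p-values set the group difference against the spread between tumors and take the tumors as independent. If tumors shared a mouse, the p-values could be too small.

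The 16513 genes that reached 10 counts in 3 or more tumors were tested with edgeR 4.0.16 (glmQLFit, glmQLFTest, TMM) in R 4.3.3, with Benjamini-Hochberg adjustment over all of them and a threshold of 0.05. The standard error is the log2 fold change divided by the square root of F. CPM are TMM scaled. Ratios were compared by exact permutation tests over tumors (SciPy 1.17.1). Alternatives were DESeq2 1.42.0, other scalings and filters, a replicate block, leaving out each tumor, unadjusted p, and limma 3.58.1 on FPKM. The limma fits added 1 or 0.1 to the FPKM before taking log2 and kept the genes that reached 1 FPKM in 3 or more tumors, and a further fit with 1 added kept every gene.

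The 9 genes and the 13 lists beside them were chosen with earlier results of these data known. The lists were other class II genes, endosomal processing, surface turnover, promoter factors, regulators of Ciita, receptors of class II, all leukocytes, dendritic cells, B cells, macrophages, monocytes, hepatoma cells, and class I presentation. Named are the 9 genes, from each list those past the threshold and the 2 with the highest mean CPM, and the 5 genes most like the classical chains. Some genes of the lists that this rule or the text would name are not reported here. Ctss, Rfx5, Ifng, Ms4a1, Cd79a, and Nlrc5 are named in addition and were chosen after their values were seen.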

Additional observations from a re-analysis of the deposited data

How the results depend on the processing

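All 8 lower genes stayed below 0 and H2-Ob above 0 in every alternative that gave a value, and the median log2 fold change of the 9 genes ranged from -0.50 to -0.25. The number of the 9 genes past the adjusted threshold, 1 (Ciita), did depend on the setting, and the cause was not tested. It was 4 in DESeq2 (H2-Eb1, H2-DMa, Cd74, and Ciita), 3 with no filter (H2-DMa, Cd74, and Ciita), 8 with unadjusted p, and 0 with upper quartile scaling, with at least 50 counts on average, and in all 3 limma fits on FPKM. DESeq2 called 3.72% of all genes lower and edgeR with no filter 2.28%, beside 1.34% in the fit reported. That share was 1.35% with upper quartile scaling, 1.6% with at least 50 counts on average, 0.861% and 0.699% in limma on filtered genes, 0% in limma on all genes, and 0.273% with a replicate block. Leaving out 1 tumor gave 0 to 5 of the 9 genes and 0.00613% (without Sora tumor 4) to 3.5% (without Sora tumor 3) of all genes called lower, with 0.209% to 0.656% without each of the other 4 tumors. Ciita passed in 5 of 16 alternatives, with adjusted p from 4.77e-04 (DESeq2) to 0.293 (limma on all genes), and just missed with upper quartile scaling (0.0520). Cd74 passed in 3 of 16, with adjusted p from 0.00179 to 0.655. The labels of the groups share the numbers 3 and 4, but deviations of same-numbered tumors did not go together (correlations over genes of -0.03 and -0.07), so the numbers are not taken as pairs. With a replicate block 0 of the 9 genes passed, the median was -0.27, and Ciita was at -0.50 (adjusted p = 0.0924). Control tumor 1 and Sora tumor 2 share their number with no other tumor, so in this fit only the tumors numbered 3 and 4 inform the change. A call lost with a replicate block therefore cannot tell an effect of pairing from the use of fewer tumors. The differences of the 6 ratios kept their sign without any 1 tumor, with H2-Oa to H2-Ob from -1.52 to -1.19 and Ciita to H2-Ab1 from -0.36 to -0.28. Of the other genes called, Ifi30, Ctsl, Cd83, Mertk, Alb, Hnf4a, and Apoa1 each missed the threshold with a replicate block (adjusted p of 0.12, 0.345, 0.231, 0.273, 0.236, 0.0788, and 0.0620) and in limma on all genes (0.179 to 0.354). Cd83, Mertk, Alb, and Apoa1 also missed it in both limma fits on filtered genes (0.0504 to 0.101), and Apoa1 in DESeq2 (0.0627) and with at least 50 counts on average (0.0515). For H2-Oa and H2-Ob, with 18 to 72 reads per tumor, depth limits what can be detected.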

Other observations

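Class I presentation, the route by which cells show peptides from their cytosol, was measured beside class II. All 10 genes of the class I list were lower in Sora tumors, none passed the adjusted threshold in edgeR or DESeq2 (2 were at an unadjusted p under 0.05), and the median log2 fold change was -0.18. The most abundant, H2-D1, a class I heavy chain, had 2659, 3015, and 2284 CPM in control tumors 1, 3, and 4 and 2205, 2577, and 2536 CPM in Sora tumors 2, 3, and 4, with overlap. B2m, the light chain, was at 2319 to 2551 CPM and then at 1873 to 2224 CPM, without overlap (log2 fold change -0.21, edgeR adjusted p = 0.294). Nlrc5, which acts on class I promoters as CIITA does on class II promoters, was at -0.20 (edgeR adjusted p = 0.191). The classical class II chains and Cd74 exceeded the class I list by 1.54 in mean log2(CPM + 1) in control tumors and 1.35 in Sora tumors, with overlap.

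The length of 8325 bases that the FPKM of H2-DMa imply equals the RefSeq span of the gene H2-DMb2 in GRCm38.p6, introns included. The length for Ciita, 9775 bases, is 1.63 times its longest coding transcript, and those of the other 7 genes are 0.915 to 1.14 times theirs. These lengths are the same in all tumors and do not enter the fold changes. By coding transcript the mean level of Ciita would be 14.8 in control tumors and 9.63 in Sora tumors, and both genes keep their places in the order of the 9.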
